A study of Mus musculus with 12 samples.

Results

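De novo lipogenesis builds fatty acids from acetyl units, and 10 of its genes are described here in mouse fat. They were picked by gene symbol and cover the making of acetyl-CoA and malonyl-CoA, the fatty acid synthase, elongation and desaturation, supply of NADPH, and regulation of the pathway. All 10 were found in both deposited comparison tables, among 16738 genes for inguinal white fat and 15363 for brown fat. RNA was sequenced from the white fat of C57BL/6 mice on a high-fat diet at room temperature, in 12 libraries. The libraries were KO females, WT females, KO males and WT males, 3 of each, where KO stands for a loss of NDUFS4, a subunit of respiratory complex I, that the series describes as adipocyte-directed. The promoter that drives the deletion, the age of the mice and the number of animals behind a library are not stated in the labels, so p-values measure only the spread between libraries, which may be technical. The groups of the brown fat table are not described in the labels, and the contrast is known from the table's name.

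In this pathway ATP-citrate lyase (Acly) and the acetyl-CoA synthetase Acss2 make cytosolic acetyl-CoA, acetyl-CoA carboxylase turns it into malonyl-CoA, and fatty acid synthase (Fasn) joins these units into palmitate. Elovl6 lengthens palmitate to stearate, and Scd1 places a double bond to give oleate and palmitoleate. In mouse fat the pathway answers to insulin and carbohydrate through the transcription factors SREBP1c and ChREBP, the product of Mlxipl, and in brown fat it is also known to be active during cold exposure.

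Both tables hold 1 contrast, the interaction of genotype and sex. Its value is the log2 ratio of KO over WT in females less that ratio in males, with the order of the sexes read from the table's name. A value above 0 can arise from a higher level in KO females, a lower level in KO males, or levels that differ between WT females and WT males, and these cannot be told apart here because levels per group were not analysed. In bulk tissue, fewer cells of a type and less RNA per cell cannot be told apart either. The targeted gene Ndufs4 had an interaction of 0.89 ± 0.38 (standard error, SE) in white fat (adjusted p = 0.169) and -0.10 ± 0.14 in brown fat (adjusted p = 0.946) per the authors' deposited table of each depot, from limma. A difference between sexes does not check the genotype labels. Library totals were not analysed, so the depth behind the values is unknown.

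For 3 members, Thrsp, Fasn and Acss2, the 95% interval of the interaction lay above 0 in both depots, and their promoter sequences are shown for that reason. RefSeq windows of 300 bases (250 before and 50 after the annotated start, build GRCm38.p6) were matched by symbol for 9 of the 10 members. Each is written from 5′ to 3′ on the strand of its gene, and capitals mark every match to 1 of 5 motifs, each searched on both strands. They were CACGTG, which is the E-box, and an SREBP element spelled as TCACNCCAC. The others were CCAAT, bound by NF-Y, the GC box with the letters GGGCGG, and, for the TATA box, TATAAA. The Thrsp window lies at chr7:97417501-97417800 (minus strand), that of Fasn at chr11:120824498-120824797 (minus strand) and that of Acss2 at chr2:155517793-155518092 (plus strand).
Thrsp: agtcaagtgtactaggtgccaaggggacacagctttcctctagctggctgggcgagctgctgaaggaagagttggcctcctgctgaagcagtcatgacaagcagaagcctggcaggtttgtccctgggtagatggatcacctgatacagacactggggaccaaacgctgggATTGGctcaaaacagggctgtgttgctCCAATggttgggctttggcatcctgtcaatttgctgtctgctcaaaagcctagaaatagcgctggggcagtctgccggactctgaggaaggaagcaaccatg
Fasn: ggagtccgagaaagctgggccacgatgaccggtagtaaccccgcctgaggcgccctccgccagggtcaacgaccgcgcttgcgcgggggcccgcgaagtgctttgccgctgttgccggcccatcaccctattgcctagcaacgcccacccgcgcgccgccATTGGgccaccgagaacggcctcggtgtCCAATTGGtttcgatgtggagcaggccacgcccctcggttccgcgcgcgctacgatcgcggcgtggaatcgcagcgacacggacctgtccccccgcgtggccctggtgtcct
Acss2: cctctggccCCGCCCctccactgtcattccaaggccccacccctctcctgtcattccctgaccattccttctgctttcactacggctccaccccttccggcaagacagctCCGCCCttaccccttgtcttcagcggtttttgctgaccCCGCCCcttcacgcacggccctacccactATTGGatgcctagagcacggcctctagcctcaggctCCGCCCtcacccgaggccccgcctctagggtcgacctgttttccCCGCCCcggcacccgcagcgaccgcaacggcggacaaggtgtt

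All 3 windows hold the CCAAT motif upstream of the start. The Thrsp window has it at -79 and -52, that of Fasn at -90, -62 and -59, the last 2 overlapping on opposite strands, and that of Acss2 at -73 (position of the first base, with -1 just before the start). The 9 matched members have 11 windows, since Mlxipl and Me1 have a pair each, and the motif was in 7 of these 11, against 37.4% of all 32851 windows. The GC box was in 4 of the 11, a share near the 35.7% of all windows, with 5 copies in that of Acss2. The E-box, a site that ChREBP with its partner MLX can bind when sites are paired, was found in 1 of the 11, a window of Mlxipl itself, against 7.15% of all windows. The SREBP element was found in the other window of Mlxipl alone, against 1.24% of all windows, and TATAAA in that of Acacb alone, against 13.6%. These are matches of letters within short windows and say nothing of binding. The only Acaca window lies inside the gene, downstream of its outermost annotated start, so the promoter at that start was not searched. Windows of other members, that of Acacb among them, may likewise miss the outermost start of their gene.

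How strongly was each gene expressed in the 2 depots? Levels are given per exon length, as the mean log2 expression of the authors' deposited table minus log2 of the gene's exon length in kb. Scd1 was the highest of the 10 in both depots, with a length-adjusted level of 9.997 in white fat and 9.91 in brown fat, at percentiles 99.9 and 99.7 of all genes per the authors' deposited table of each depot. Thrsp, whose product Spot14 is a small lipogenic protein induced by thyroid hormone, was next with 7.30 in white fat and 8.85 in brown fat per the authors' deposited table of each depot. The 2 tables were normalised separately, so an order within a depot can be read, but not a difference between depots.

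**Figure D1:**
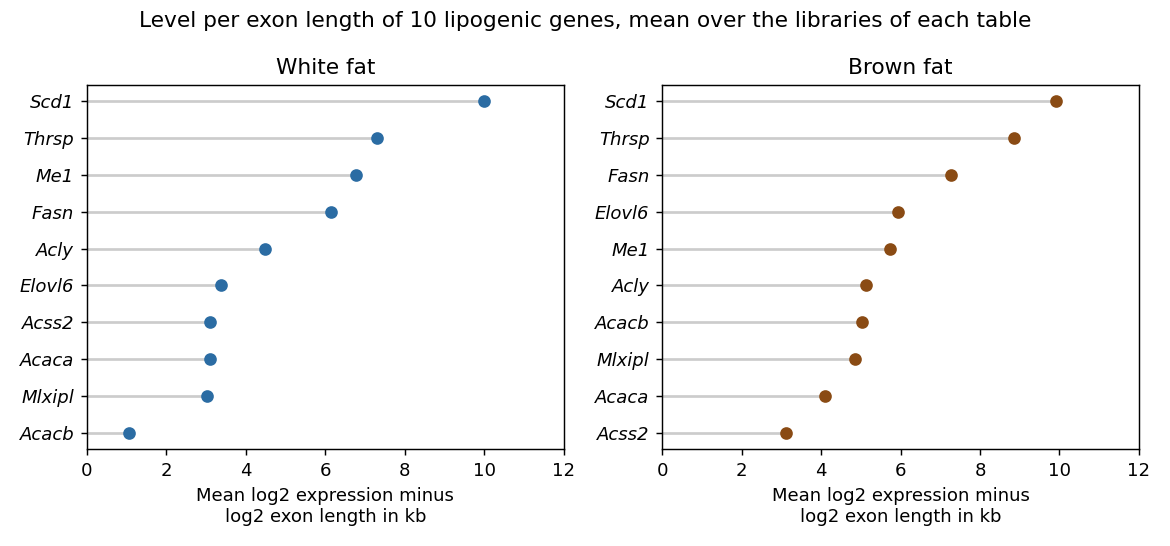
Length-adjusted level of the 10 lipogenic genes in white fat (left) and brown fat (right), as the mean log2 expression over the libraries of each table minus log2 exon length in kb. Scd1 and Thrsp lead both depots, while Acacb is lowest in white fat (1.07) and Acss2 lowest in brown fat (3.12).

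Below these came, in white fat, Me1 (6.77), Fasn (6.14), Acly (4.47), Elovl6 (3.37), Acss2 (3.11), Acaca (3.10), Mlxipl (3.02) and Acacb (1.07), as length-adjusted levels from the authors' deposited table. Acss2, Acaca and Mlxipl lay within 0.1 of each other there. In brown fat the order was Fasn (7.26), Elovl6 (5.94), Me1 (5.74), Acly (5.14), Acacb (5.03), Mlxipl (4.85), Acaca (4.11) and Acss2 (3.12) per the authors' deposited table. The order of the carboxylase genes thus differed: Acaca stood above Acacb in white fat and Acacb above Acaca in brown fat. Before exon length was taken off, the order was the same in each depot, but in brown fat these genes were then nearly equal. Most of their gap in brown fat came from the greater exon length given to Acaca. Exon length here is a union over annotated exons, so all these orders depend on the annotation too. The spread of a level over libraries was not analysed, so whether neighbours in these orders differ beyond it cannot be stated.

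Did loss of NDUFS4 act differently on these genes in females and males? The interaction was above 0 for all 10 genes in white fat and for all 10 in brown fat, but none passed an adjusted p of 0.05 in limma in either table. Of all genes, 4.75% passed that threshold in white fat and 0.013% in brown fat. At an unadjusted p under 0.05, 5 of the 10 were above 0 in white fat (Acss2, Fasn, Elovl6, Thrsp and Mlxipl), where 11.9% of all genes were, and 5 of the 10 in brown fat (Thrsp, Acly, Acss2, Acaca and Fasn), where 3.33% were. None was below 0 at that p, against 12.6% of all genes in white fat and 3.18% in brown fat. The median over the members was 1.29 in white fat, against 0.13 over all genes, and 0.67 in brown fat, against 0.01 over all genes. Interactions above 0 were found for 55.9% of all genes in white fat and 51% in brown fat. The members and their order were chosen with earlier results of these data known, so these counts are descriptions.

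**Figure D2:**
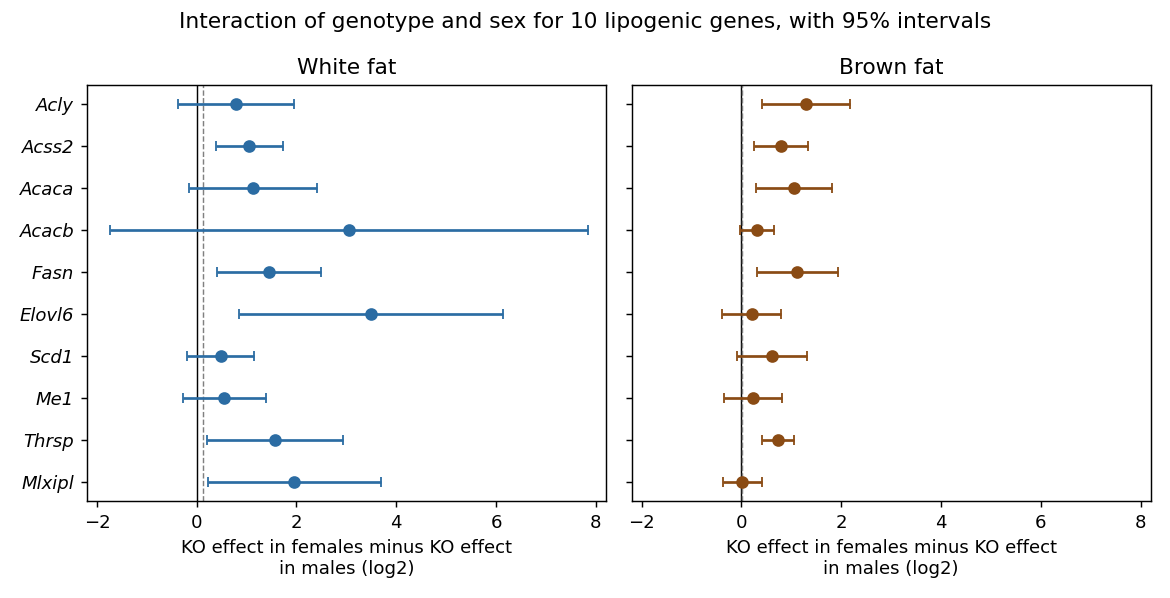
Log2 interaction of genotype and sex (KO effect in females minus that in males) for the 10 genes in white fat (left) and brown fat (right), points with 95% intervals from the authors' fit, a solid line at 0 and a dashed line at the median of all genes. Every point lies right of 0, and the interval excludes 0 for 5 genes in each depot, with Thrsp, Fasn and Acss2 in both.

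Acetyl-CoA supply came first in the pathway. Acss2, which makes acetyl-CoA from acetate (ENSMUSG00000027605.19, chromosome 2, 155359868 to 155427644, GRCm39), had the smallest p of the 10 in white fat, with an interaction of 1.05 ± 0.31 (SE, 95% interval 0.38 to 1.73, p = 0.00491, adjusted p = 0.0649) per the authors' deposited table. In that table this equals a KO over WT ratio 2.07 times as high in females as in males. Brown fat gave Acss2 an interaction of 0.79 ± 0.27 (interval 0.25 to 1.33, p = 0.00541, adjusted p = 0.622), per the authors' deposited table. Acly, which cleaves citrate exported from mitochondria (ENSMUSG00000020917.18, chromosome 11, 100367179 to 100418826), had an interaction of 1.30 ± 0.43 in brown fat (interval 0.42 to 2.17, p = 0.00488, adjusted p = 0.622) per the authors' deposited table. That was the largest of the 10 in brown fat, while in white fat Acly was at 0.79 ± 0.54 with an interval from -0.37 to 1.94 that includes 0 (adjusted p = 0.379) per the authors' deposited table.

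The carboxylases make malonyl-CoA, Acaca for synthesis in the cytosol and Acacb at the mitochondrial outer membrane, where malonyl-CoA holds back the entry of fatty acids through CPT1. Acaca (ENSMUSG00000020532.19, chromosome 11, 84020498 to 84292477) was at 1.05 ± 0.37 in brown fat (interval 0.29 to 1.81, p = 0.00803, adjusted p = 0.624) and 1.13 ± 0.59 in white fat (interval -0.15 to 2.40, p = 0.0795, adjusted p = 0.257) per the authors' deposited table of each depot. The values were near each other and the wider error in white fat took that interval across 0. Acacb (ENSMUSG00000042010.17, chromosome 5, 114284596 to 114388822) had an interaction of 3.05 ± 2.22 in white fat (interval -1.74 to 7.84, adjusted p = 0.413) per the authors' deposited table. Its standard error in white fat lay at percentile 99.3 of all genes, so neither an effect of 0 nor a large one is outside the interval. In brown fat Acacb was at 0.31 ± 0.17 (interval -0.03 to 0.66, p = 0.0721, adjusted p = 0.796) per the authors' deposited table, with a standard error at percentile 3.57.

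Fasn, the synthase itself (ENSMUSG00000025153.10, chromosome 11, 120696672 to 120715373), was at 1.45 ± 0.49 in white fat (interval 0.40 to 2.49, p = 0.0104, adjusted p = 0.0918) per the authors' deposited table. In brown fat it was at 1.12 ± 0.40 (interval 0.31 to 1.93, p = 0.00819, adjusted p = 0.624) per the authors' deposited table. As ratios, KO over WT for Fasn was 2.73 times as high in females as in males in white fat and 2.17 times in brown fat.

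Elovl6 and Scd1 finish the chain. Elovl6, the elongase of palmitate (ENSMUSG00000041220.11, chromosome 3, 129326004 to 129432144), had the largest interaction of the 10 in white fat, 3.50 ± 1.23 (interval 0.85 to 6.15, p = 0.0134, adjusted p = 0.105), per the authors' deposited table. Brown fat gave it 0.21 ± 0.29 (interval -0.39 to 0.80, p = 0.484, adjusted p = 0.948) per the authors' deposited table. These intervals do not overlap, but the depots were fitted separately, may come from the same animals, and the difference between them was not tested. Scd1, the main stearoyl-CoA desaturase of fat (ENSMUSG00000037071.4, chromosome 19, 44382894 to 44396318), was at 0.48 ± 0.31 in white fat (interval -0.19 to 1.15, adjusted p = 0.354) and 0.61 ± 0.35 in brown fat (interval -0.10 to 1.32, adjusted p = 0.801) per the authors' deposited table of each depot. Scd1 has close paralogs beside it on chromosome 19, and the labels do not say how reads common to such copies were counted.

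Me1, the cytosolic malic enzyme that yields NADPH (ENSMUSG00000032418.16, chromosome 9, 86463424 to 86578006), stood near the bottom of the group in both depots. It was at 0.56 ± 0.39 in white fat (interval -0.28 to 1.39, adjusted p = 0.392) and 0.24 ± 0.28 in brown fat (interval -0.34 to 0.81, adjusted p = 0.935) per the authors' deposited table of each depot.

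Among the regulators, Thrsp (ENSMUSG00000035686.9, chromosome 7, 97062145 to 97066937) had the fourth smallest p of all 15363 genes in brown fat, with an interaction of 0.73 ± 0.16 (interval 0.41 to 1.06, p = 5.52e-05) per the authors' deposited table. Its adjusted p there was 0.131, so it did not pass. In white fat Thrsp was at 1.58 ± 0.63 (interval 0.21 to 2.94, p = 0.0269, adjusted p = 0.148) per the authors' deposited table, a larger value with a wider error. Mlxipl (ENSMUSG00000005373.14, chromosome 5, 135118744 to 135167236) was at 1.96 ± 0.80 in white fat (interval 0.23 to 3.69, p = 0.0296, adjusted p = 0.156) and 0.02 ± 0.19 in brown fat (interval -0.37 to 0.41, p = 0.911, adjusted p = 0.990) per the authors' deposited table of each depot. The brown fat value of Mlxipl was the lowest of the 10 there. Transcripts from its separate start sites, which give the alpha and beta forms of ChREBP, are joined in a value per gene.

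**Figure D3:**
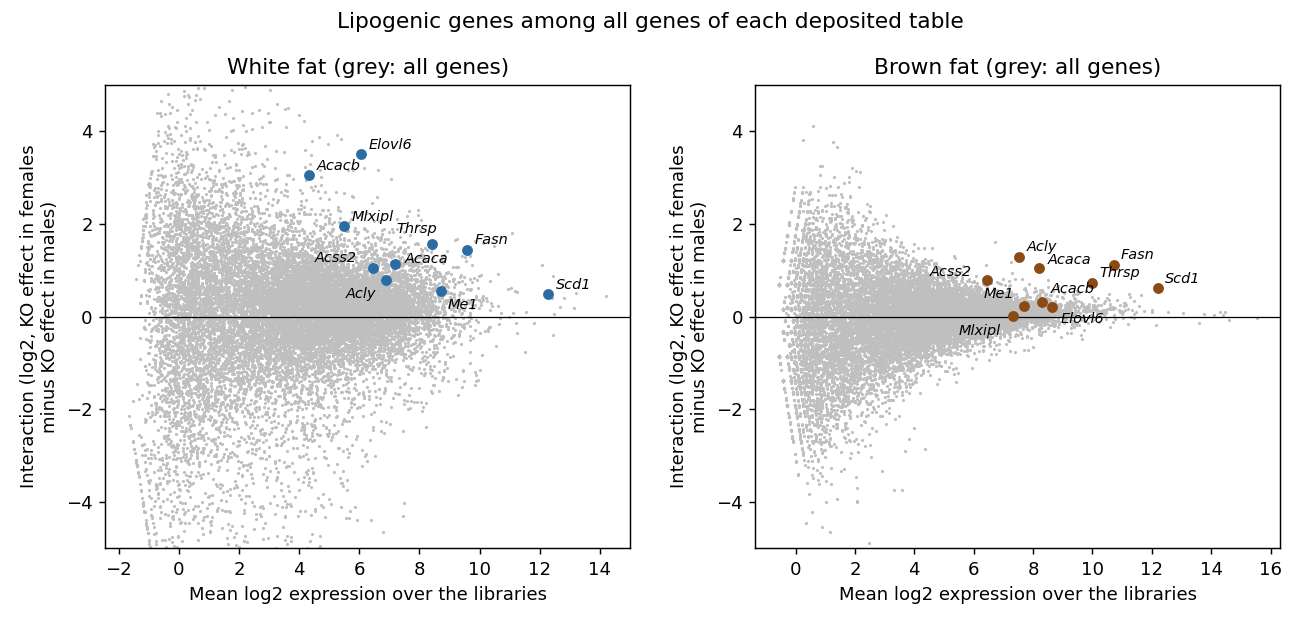
Log2 interaction against mean log2 expression for all genes (grey) and the 10 lipogenic genes (coloured, named) in white fat (left) and brown fat (right), with 300 genes of white fat and 1 gene of brown fat beyond the axis limit of 5. In white fat Elovl6 (3.50) and Acacb (3.05) stand above the other members, and in brown fat Acly, Fasn, Acaca, Acss2, Thrsp and Scd1 lie between 0.61 and 1.30 while Acacb, Me1, Elovl6 and Mlxipl lie between 0.02 and 0.31.

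The errors of most of these genes were wide for their expression. Against genes within 0.5 of the same mean log2 expression, 7 of the 10 had a standard error at or above percentile 95 in white fat (Thrsp, Acaca, Acacb, Acly, Fasn, Elovl6 and Mlxipl) and 6 of the 10 in brown fat (Acaca, Acly, Fasn, Scd1, Elovl6 and Me1). Elovl6 in white fat stood at percentile 99.8 of 2089 such genes. Scd1 in brown fat had the highest of only 6 such genes, so its percentile says little. Acly in brown fat had the highest standard error of 771 such genes, and Fasn that of 49. For Acss2 the percentiles were 65.3 of 1862 genes in white fat and 83.6 of 1320 in brown fat. In brown fat Mlxipl stood at percentile 38.4 of 885 such genes and Acacb at 65.1 of 393. In white fat Scd1 stood at percentile 33.3 of only 9. The standard error was larger in white fat for 9 of the 10, the exception being Scd1, and the interaction was larger in white fat for 8, the exceptions being Acly and Scd1. Which libraries carried this spread was not analysed.

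The rest of the pathway was read from 5 lists. Of all genes, 55.9% were above 0 in white fat and 51% in brown fat. At an unadjusted p under 0.05 from limma, 11.9% of all genes were above and 12.6% below in white fat. In brown fat those shares were 3.33% and 3.18%. For citrate and NADPH supply, 12 of 12 genes were above 0 in white fat with a median of 0.95 and 11 of 12 in brown fat with a median of 0.26. At an unadjusted p under 0.05, 9 of the 12 were above 0 in white fat and 3 of the 12 in brown fat, and none was below. One of them passed in white fat, Mpc2, part of the carrier that brings pyruvate into mitochondria, at 1.39 ± 0.35 (adjusted p = 0.0434) per the authors' deposited table from limma, and none passed in brown fat. With the median interaction of the table taken as 0, Mpc2 was at 1.26 (adjusted p = 0.0519) and no longer passed. Cs, citrate synthase, was next in white fat with 1.47 ± 0.45 (adjusted p = 0.0722) per the authors' deposited table. In brown fat the smallest p belonged to Taldo1 and Tkt, enzymes of the pentose phosphate pathway, at 0.49 ± 0.13 (adjusted p = 0.343) and 0.68 ± 0.20 (adjusted p = 0.392) per the authors' deposited table.

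Other elongation and desaturation genes were less uniform. In white fat 12 of 15 measured genes were above 0 with a median of 0.49, and 1 passed, Tecr, the reductase that ends each elongation cycle, at 1.21 ± 0.28 (chromosome 8, 84298327 to 84334600, adjusted p = 0.0365) per the authors' deposited table from limma. Scd2, another desaturase, was at 1.20 ± 0.38 (adjusted p = 0.0783) in white fat per the authors' deposited table. At an unadjusted p under 0.05, 4 of the 15 were above 0 and 1 below in white fat, against 11.9% and 12.6% of all genes. In brown fat 6 of 17 were above 0 with a median of -0.08 and none passed, with 0 above and 1 below at that unadjusted p. Of all genes, 3.33% were above and 3.18% below at that p there. The smallest p there belonged to Scd3, a further desaturase, at -2.72 ± 1.03 with a mean log2 expression of 0.19 (adjusted p = 0.688), and to Hacd1, a dehydratase of the elongation cycle, at -0.62 ± 0.34 (adjusted p = 0.796), per the authors' deposited table.

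Genes that activate fatty acids and assemble triglyceride had 12 of 14 above 0 in white fat (median 0.91) and 8 of 14 in brown fat (median 0.03), and none passed in either. At an unadjusted p under 0.05, 8 of the 14 were above 0 and none below in white fat, and 1 was above and 1 below in brown fat. The shares of all genes were 11.9% above and 12.6% below in white fat, and 3.33% and 3.18% in brown fat. Gpam, which starts glycerolipid synthesis, was at 2.27 ± 0.70 (adjusted p = 0.0720) and Lpin1, a phosphatidate phosphatase, at 0.95 ± 0.33 (adjusted p = 0.1003) in white fat per the authors' deposited table. In brown fat the acyl-CoA synthetases Acsl4 and Acsl1 lay on opposite sides of 0, at -0.78 ± 0.32 (adjusted p = 0.690) and 0.23 ± 0.09 (adjusted p = 0.692) per the authors' deposited table.

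Genes that control the carboxylases and malonyl-CoA had 8 of 10 above 0 in white fat (median 0.46) and 8 of 10 in brown fat (median 0.09), with none passing. In white fat 4 of the 10 were above 0 at an unadjusted p under 0.05 and in brown fat none, with none below in either. The shares of all genes were 11.9% above and 12.6% below in white fat, and 3.33% and 3.18% in brown fat. Prkaa2, a catalytic subunit of AMP-activated kinase, which phosphorylates and inhibits acetyl-CoA carboxylase, was at 1.35 ± 0.38 (adjusted p = 0.0559) in white fat per the authors' deposited table. Prkag2, a regulatory subunit of that kinase, was at 0.96 ± 0.34 (adjusted p = 0.106) in white fat per the authors' deposited table. In brown fat Prkab1, another subunit, was at 0.93 ± 0.48 (adjusted p = 0.782) and Mlycd, which degrades malonyl-CoA, at 0.32 ± 0.18 (adjusted p = 0.799) per the authors' deposited table.

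The other regulators, SREBP, ChREBP partners, liver X receptors and adipogenic factors among them, lay on both sides of 0. In white fat 10 of 18 were above 0 with a median of 0.07, and in brown fat 9 of 17 with a median of 0.02, and none passed. In white fat 1 of the 18 was above 0 and 2 below at an unadjusted p under 0.05, and in brown fat none. The shares of all genes were 11.9% above and 12.6% below in white fat, and 3.33% and 3.18% in brown fat. Pparg, the adipogenic nuclear receptor, was at 1.56 ± 0.49 (adjusted p = 0.0773) and Mbtps2, the protease that completes the release of SREBP, at -1.01 ± 0.33 (adjusted p = 0.0807) in white fat per the authors' deposited table. In brown fat Mbtps2 was at 1.05 ± 0.64 (adjusted p = 0.826) and Mlxip, the ChREBP paralog MondoA, at 1.01 ± 0.55 (adjusted p = 0.801) per the authors' deposited table. Srebf1, the gene of SREBP1c, named after its values were seen, was at 0.72 ± 0.57 in white fat (adjusted p = 0.450) and 0.27 ± 0.63 in brown fat (adjusted p = 0.980) per the authors' deposited table of each depot. Srebf2, the other SREBP gene, also named after its values were seen, was below 0 in both depots. It was at -0.91 ± 0.39 in white fat (adjusted p = 0.171) and -0.10 ± 0.39 in brown fat (adjusted p = 0.980) per the authors' deposited table of each depot, from limma.

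**Figure D4:**
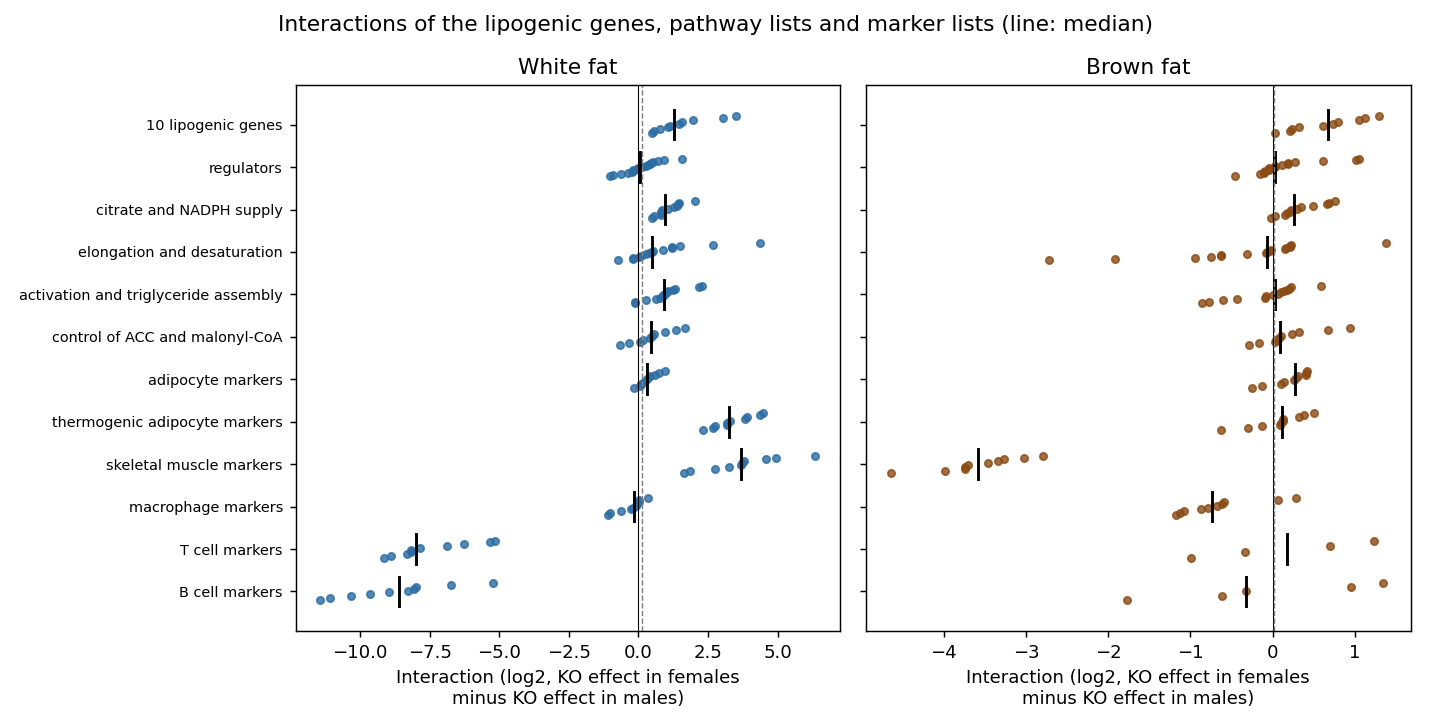
Log2 interactions (KO effect in females minus that in males) of the 10 lipogenic genes, 5 pathway lists and 6 marker lists in white fat (left) and brown fat (right), 1 point per gene with a black line at the list's median and a dashed line at the median of all genes. The lipogenic genes lie wholly right of 0 in both depots, the regulators straddle 0, and the T cell (median -8.00) and B cell markers (-8.61) lie far left in white fat.

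In white fat, markers of lymphocytes, thermogenic fat and skeletal muscle had medians far from 0 in the same contrast. The median standard error was 2.23 for thermogenic, 2.84 for skeletal muscle, 1.74 for T cell and 2.41 for B cell markers. Only 1 of 10 thermogenic and 1 of 10 muscle markers were above 0 at an unadjusted p under 0.05, against 11.9% of all genes. All 10 T cell and all 10 B cell markers were below 0 at that p, against 12.6% of all genes. Adipocyte markers, such as Adipoq and Plin1, were above 0 for 9 of 10 genes in white fat (median 0.32) and 8 of 10 in brown fat (median 0.27), and none passed. At an unadjusted p under 0.05, 1 of the 10 was above 0 in white fat (Pnpla2), against 11.9% of all genes. In brown fat 4 of the 10 were (Plin1, Lipe, Pnpla2 and Cidec), against 3.33% of all genes. Of the lipogenic genes 5 of the 10 were above 0 at that p in each depot. In white fat 10 of 10 T cell markers (median -8.00, 9 passing) and 10 of 10 B cell markers (median -8.61, with Ms4a1, Cd22, Blk, Bank1 and Cxcr5 passing) were below 0. Thermogenic markers, Elovl3 among them, were above 0 for 10 of 10 genes (median 3.25, with the potassium channel gene Kcnk3 passing), as were 10 of 10 skeletal muscle markers (median 3.70, none passing) and 7 of 7 measured mammary epithelial markers (median 1.74, none passing). Ucp1, which defines thermogenic fat and was named after its values were seen, was at 3.29 ± 5.70 (adjusted p = 0.749) in white fat per the authors' deposited table. The milk protein genes Csn2, Wap and Lalba, also on the mammary list, were not among the genes of the table. Macrophage markers had 3 of 10 above 0 (median -0.15, none passing). In brown fat the skeletal muscle list was at the other side, 10 of 10 below 0 (median -3.58, none passing). Macrophage markers had 2 of 10 above 0 there (median -0.73, none passing) and thermogenic markers 7 of 10 (median 0.11, none passing). At an unadjusted p under 0.05, 4 of 10 muscle and 3 of 10 macrophage markers were below 0 in brown fat, against 3.18% of all genes. Of thermogenic markers 1 of 10 was above 0 at that p, against 3.33% of all genes. Of T cell markers 2 of 4 measured were above 0 (median 0.18) and of B cell markers 2 of 5 (median -0.32), none passing, and 0 of 10 mammary markers were measured. The median mean log2 expression in brown fat was -0.15 for T cell and 0.04 for B cell markers, near the lowest of all genes there (-0.55). In white fat it was 2.20 and 1.99, against a median of 3.93 over all genes. The part of the listed cell types in the values of the lipogenic genes was not tested.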

How the data were processed

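White fat and brown fat each have a deposited comparison table and a table of library values from RNA sequencing. The labels describe 12 white fat libraries and none of brown fat. The submitters' processing notes name featureCounts, limma and the build GRCm39, without versions. The aligner, the gene annotation and whether counting used strand are not stated in the labels. The log2 values (interaction and mean expression) are the authors' deposited coefficients, the t-statistic is a deposited score, and p-values are as deposited by the authors, with the adjusted p checked to be the Benjamini-Hochberg adjustment over each table.

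The names of 48 columns of library values, 12 in each of 4 tables, match no label, so these were used in no step. Levels, spread and covariation over libraries, and genes alike in pattern, are therefore not given.

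Standard errors are the interaction over t. Intervals at 95% use the degrees of freedom that turn t into p, 13.4 in white fat and 33.9 in brown fat. These steps were tested on simulated data. Exon lengths are unions over GENCODE M21 (GRCm38, used for lengths only, found for 99.8% and 99.7% of genes). Promoter windows come from RefSeq on GRCm38.p6, while gene positions are those of the deposited tables on GRCm39.

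The members and lists were chosen with earlier results of these data known. Named genes are the members, Ndufs4 and, per list and table, genes passing 0.05 or else up to the 2 smallest p. Alternatives were a threshold of 0.10, protein-coding genes alone, a minimum mean expression of log2 of 10, a minimum size of 1, and values taken relative to the median interaction. Steps ran in Python 3.11.15 with scipy 1.17.1, pandas 2.3.3, numpy 2.4.6 and, for plots, matplotlib 3.10.9.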

Additional observations from a re-analysis of the deposited data

Results flagged for a closer look

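By the authors' own test, the KO effect differed between females and males for 2 of the 69 measured pathway-list genes in white fat (2.9%). Neither is a member of the 10, and both were above 0. Of all genes there, 4.75% passed in either direction and 1.06% passed above 0. In brown fat 0 of 70 passed, against 0.013% of all genes. Mpc2 had a log2 interaction of 1.39 ± 0.35 (standard error, adjusted p = 0.0434 from limma) and Tecr one of 1.21 ± 0.28 (adjusted p = 0.0365 from limma) in the authors' deposited table. With the median interaction of the table taken as 0, the adjusted p of Mpc2 was 0.0519 and it did not pass.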

How the results depend on the processing

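No lipogenic gene passed in brown fat under any of the 5 alternatives. In white fat 2 passed at a threshold of 0.10, Acss2 and Fasn, where 2027 genes of the whole table (12.1%) did, and 0 passed under the other alternatives. Centring on the median interaction is the only alternative that can change a sign, and each of the 10 was above 0 in both depots under it. Mlxipl in brown fat was then at only 0.009 ± 0.19, so its sign says little. In white fat 795 genes passed, 177 above 0 and 618 below, and centring gave 960, 108 above and 852 below. Adjusted p ranged over the alternatives from 0.0596 to 0.0956 for Acss2 and from 0.0819 to 0.121 for Fasn in white fat, and from 0.0906 to 0.143 for Thrsp in brown fat. No paired analysis was possible because the columns of library values carry no replicate number, and leaving out each replicate was not run for the same reason. Depth is unknown, and the error of the authors' fit is the only measure of precision here.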
